A study of Mus musculus with 16 samples.

Results

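The platelet-derived growth factor (PDGF) family was described by its 2 receptor genes, *Pdgfra* and *Pdgfrb*, and its 4 ligand genes, *Pdgfa*, *Pdgfb*, *Pdgfc* and *Pdgfd*. These 6 of 49452 genes were taken by their symbols as the members of the family, and each was found once in the tables of all 16 mice. RNA was sequenced from tdTomato-positive cells that were sorted from the lung with a SmartSeq2 protocol. tdTomato is a red fluorescent protein that a cell and its descendants make once tamoxifen has activated the Cre recombinase in that cell. The mice formed 4 groups of 4, and all carried a floxed tdTomato reporter.

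*Acta2-tdT* mice (strain Acta2-CreERT2; tdTomatoflox) carried Cre under the promoter of *Acta2*, the gene of the smooth muscle actin that marks smooth muscle and myofibroblasts. *Pdgfra-tdT* mice (strain Pdgfra-CreERT2; tdTomatoflox) carried it under the promoter of *Pdgfra*. In each line, 4 mice received saline (replicates 1 to 4) and 4 received bleomycin (replicates 5 to 8), a drug that injures the lung and is used as a model of fibrosis, and lungs were taken 14 days later at 11 weeks of age. The timing of the label differed between the lines. *Acta2-tdT* mice received tamoxifen in food at 400 mg/kg from 5 days after saline or bleomycin, so cells that began to use the *Acta2* promoter after injury could also be labelled. *Pdgfra-tdT* mice received 5 injections of 3 mg at 6 weeks of age, before saline or bleomycin, so line and tamoxifen schedule cannot be told apart.

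PDGF ligands are secreted dimers. PDGF-AA and PDGF-CC act mainly through the receptor PDGFRα, PDGF-DD acts mainly through PDGFRβ, and PDGF-BB binds both. Both receptors are tyrosine kinases that drive division, migration and survival of mesenchymal cells through the Ras-MAPK and PI3K-AKT pathways. In lung, PDGFRα marks fibroblasts and PDGFRβ marks pericytes and vascular smooth muscle, while endothelial cells and platelets are known sources of PDGF-B.

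The deposited values are FPKM, fragments scaled to the length of the transcript and to the mapped fragments of the library, which allow levels to be set side by side between genes. The summed FPKM of nuclear protein-coding genes was between 36688 and 60947 in saline-treated and 241916 and 466183 in bleomycin-treated *Acta2-tdT* mice, and between 29964 and 61168 in saline-treated and 29727 and 147467 in bleomycin-treated *Pdgfra-tdT* mice. Each gene was therefore also given as scaled FPKM, divided by that sum in its mouse and multiplied by the median sum of 51979. FPKM give no library totals, so the depth of a mouse is not known. From the bounds that Cufflinks gave with each value, about 0 to 11 fragments stood behind *Pdgfc* and about 2 to 25 behind *Pdgfrb* in *Pdgfra-tdT* bleomycin mice, against about 160 to 331 and 951 to 1528 in *Acta2-tdT* bleomycin mice. *Acta2* was 139 to 314 FPKM in *Acta2-tdT* saline mice and 2.59 to 11.0 FPKM in *Pdgfra-tdT* saline mice. The 7 fibroblast markers summed to 5.22 to 53.8 FPKM in saline- and 2.50 to 161 FPKM in bleomycin-treated *Pdgfra-tdT* mice, against 19.3 to 40.1 and 1047 to 3166 FPKM in *Acta2-tdT* mice. Within the *Pdgfra-tdT* groups *Dcn*, a matrix proteoglycan, was highest in the 2 mice named below, at 44.1 and 96.2 FPKM. *Tcf21*, a fibroblast transcription factor, was at 0 in 2 of 4 saline and 4 of 4 bleomycin *Pdgfra-tdT* mice and in 1 of 4 and 3 of 4 *Acta2-tdT* mice. *Pdgfra-tdT* saline replicate 3 and bleomycin replicate 5 stood apart through endothelial genes, with 39.1 and 65.9 FPKM of *Pecam1* against 0.252 to 5.78 in the other *Pdgfra-tdT* mice. In bulk samples, fewer cells of a type and less RNA per cell cannot be told apart.

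Promoter windows from RefSeq (GRCm38.p6) were at hand for 4 of the 6 genes. The 250 bases before the start are shown for *Pdgfra*, the gene that names a Cre driver, for *Pdgfc*, the ligand seen above 1 FPKM in a single group, and for *Pdgfd*, the ligand that was lowest in that group after scaling. All 3 lie on the plus strand, at chr5:75152001-75152250 for *Pdgfra*, chr3:81036166-81036415 for *Pdgfc* and chr9:6168236-6168485 for *Pdgfd*, and none overlapped an exon of its gene in GENCODE. Capitals mark a match to a CArG box, the site of serum response factor, or to TATAAA.
Pdgfra: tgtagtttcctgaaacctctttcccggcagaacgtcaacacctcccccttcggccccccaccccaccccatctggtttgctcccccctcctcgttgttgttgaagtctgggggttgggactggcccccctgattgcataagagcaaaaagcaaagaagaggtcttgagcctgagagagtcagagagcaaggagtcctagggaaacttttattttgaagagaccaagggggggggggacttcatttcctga
Pdgfc: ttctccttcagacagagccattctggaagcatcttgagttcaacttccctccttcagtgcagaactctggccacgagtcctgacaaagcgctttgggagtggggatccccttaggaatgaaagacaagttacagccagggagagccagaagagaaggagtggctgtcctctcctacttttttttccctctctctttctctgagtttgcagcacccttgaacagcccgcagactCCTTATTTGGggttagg
Pdgfd: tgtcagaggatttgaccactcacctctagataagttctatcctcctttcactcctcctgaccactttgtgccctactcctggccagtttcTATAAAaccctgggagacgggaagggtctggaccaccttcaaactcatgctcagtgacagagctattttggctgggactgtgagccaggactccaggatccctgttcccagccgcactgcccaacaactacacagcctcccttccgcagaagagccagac
Both strands were searched. A CArG box was found in the *Pdgfc* window alone, against 1.47% of 32851 promoters, and TATAAA in the *Pdgfd* window alone, against 12.4%. The GC box GGGCGG occurred 1 time and 2 times before the 2 starts of *Pdgfa*, on the minus strand of chromosome 5, whose windows overlapped annotated exons and are not shown, and in no other window, against 32.7% of all promoters. The EGR1 motif GCGGGGGCG occurred in none of these windows, against 2.57% of all promoters. A match describes letters and not a bound site.

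The receptors separated the lines. *Pdgfrb* (ENSMUSG00000024620), on chromosome 18, was 3.54, 3.60, 4.04 and 5.00 FPKM in saline- and 29.2, 14.2, 34.2 and 37.9 FPKM in bleomycin-treated *Acta2-tdT* mice. In *Pdgfra-tdT* mice it was 0.187, 0.200, 1.30 and 0.225 FPKM with saline and 0.186, 0.0674, 0.0547 and 0.231 FPKM with bleomycin. Every *Acta2-tdT* mouse lay above every *Pdgfra-tdT* mouse, and the highest *Pdgfra-tdT* value came from saline replicate 3. On the log2(FPKM + 1) scale *Pdgfrb* was higher in *Acta2-tdT* by 1.82 ± 0.27 (SE, n = 4 per group) with saline (limma, adjusted p = 0.0134) and by 4.64 ± 0.44 with bleomycin (limma, adjusted p = 4.3e-05). The call with saline was lost without *Pdgfra-tdT* saline replicate 1, 2 or 4 (limma, adjusted p from 0.0612 to 0.0629) and without the filter (limma, adjusted p = 0.0827). With scaled FPKM the differences were 1.91 ± 0.26 (limma, adjusted p = 0.00485) and 2.12 ± 0.25 (limma, adjusted p = 0.000741). Smooth muscle markers differed in the same direction: 7 of 7 were higher in *Acta2-tdT* in both comparisons and on both scales, and their sum was 332 to 778 against 6.58 to 19.2 FPKM with saline and 2228 to 5915 against 1.83 to 43.2 FPKM with bleomycin. The 6 pericyte markers summed to 18.4 to 22.8 against 1.91 to 3.50 FPKM with saline (1 of 2 tested higher in *Acta2-tdT*) and to 25.7 to 54.9 against 1.22 to 3.76 FPKM with bleomycin (4 of 4 higher as deposited, 1 of 4 scaled). Of all genes, 2.72% (3.02% scaled) were higher in *Acta2-tdT* with saline and 71% (17.2% scaled) with bleomycin. The largest part of the pericyte sum of each *Acta2-tdT* saline mouse was *Higd1b*, at 10.5 to 15.9 FPKM against 0 to 0.150 FPKM in *Pdgfra-tdT* saline mice. *Notch3* (0.831 to 1.36 against 0.0459 to 0.0891 FPKM) and *Kcnj8* (0.987 to 7.15 against 0.0521 to 0.565 FPKM) did not overlap either. *Rgs5*, *Abcc9* and *Cspg4* overlapped between the saline lines. The part of these cells in *Pdgfrb* was not tested.

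*Pdgfra* (ENSMUSG00000029231), at chr5:75152292-75198215 in GRCm38, was 3.02, 2.18, 3.82 and 2.14 FPKM in *Pdgfra-tdT* saline mice and 0.273, 0.562, 0.330 and 0.379 FPKM in *Acta2-tdT* saline mice. The 2 groups did not overlap, and the *Acta2-tdT* values lay close to the background of these libraries. The median FPKM over 1443 olfactory and vomeronasal receptor genes, taken as the background median, was 0.323 to 0.332 in *Acta2-tdT* saline mice. This median differed between the groups, at 0.0134 to 0.122 FPKM in *Acta2-tdT* bleomycin, 0.175 to 0.336 FPKM in *Pdgfra-tdT* saline and 0.0917 to 0.317 FPKM in *Pdgfra-tdT* bleomycin mice, where *Pdgfrb* lay in or below that range in all 4. *Pdgfra* was lower in *Acta2-tdT* saline than in *Pdgfra-tdT* saline mice by 1.43 ± 0.20 on the log2(FPKM + 1) scale (a difference of -1.43, limma, adjusted p = 0.00971) and by 1.72 ± 0.25 with scaled FPKM (a difference of -1.72, limma, adjusted p = 0.00629). *Pdgfra* also missed the threshold without the filter (limma, adjusted p = 0.0695) and with all 16 mice in 1 fit (limma, adjusted p = 0.12). It entered this comparison through the *Pdgfra-tdT* mice alone, since no *Acta2-tdT* saline mouse reached 1 FPKM. The cells of *Pdgfra-tdT* mice were also sorted by a label under the promoter of this gene, so its difference is not independent of the sort. Of the 3 members tested between the saline lines, 2 passed on each scale, where 2.91% of 8153 genes passed as deposited and 3.26% scaled. The groups did not overlap for 2 of these members as deposited and 3 scaled, against 8.29% and 9.73% of genes.

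With bleomycin the order of *Pdgfra* turned as deposited. It was 8.01, 2.49, 9.09 and 11.9 FPKM in *Acta2-tdT* and 2.45, 1.36, 2.02 and 0.977 FPKM in *Pdgfra-tdT* bleomycin mice, and the lowest *Acta2-tdT* mouse lay just above the highest *Pdgfra-tdT* mouse. The difference was 1.60 ± 0.47 on the log2(FPKM + 1) scale (limma, adjusted p = 0.00894). As scaled FPKM the values were 1.28, 0.535, 1.07 and 1.33 against 0.864, 1.30, 2.38 and 1.71, the groups overlapped, and the difference was -0.30 with a 95% interval of -0.92 to 0.31 (limma, adjusted p = 0.407). Of the 5 members tested between the bleomycin lines, 4 passed as deposited, all higher in *Acta2-tdT*, where 71% of 11995 genes passed in that direction, and 3 passed scaled, where 17.2% did. The same 4 and 3 members had groups without overlap, as had 62.8% and 34.4% of genes. *Pdgfrb* and *Pdgfc* entered this comparison through the *Acta2-tdT* mice alone, the group where they were high, since no *Pdgfra-tdT* bleomycin mouse reached 1 FPKM of either.

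**Figure D1:**
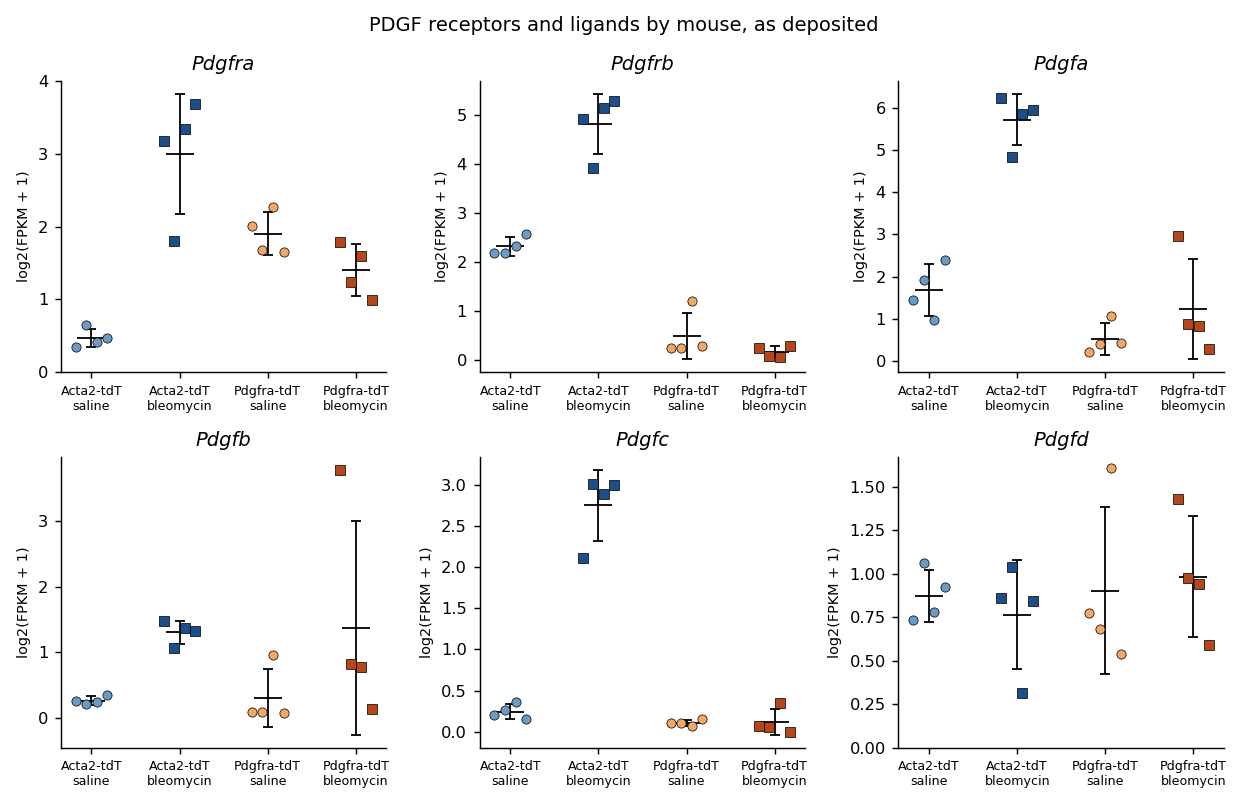
Each panel plots 1 gene as log2(FPKM + 1) on the vertical axis for the 4 mice of each group (points), with the mean and SD of the group (bars). Bleomycin-treated *Acta2-tdT* mice lay above saline-treated *Acta2-tdT* mice in every panel but *Pdgfd*, and 1 *Pdgfra-tdT* bleomycin mouse stood alone for *Pdgfb* at 12.8 FPKM.

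The ratio of the receptors within a mouse was taken as log2 of *Pdgfra* over *Pdgfrb*, with 0.1 FPKM added to each, so it depends on the scale of low values. In *Acta2-tdT* mice its mean was -3.11 ± 0.43 (SD, n = 4) with saline and -1.97 ± 0.35 with bleomycin, and in *Pdgfra-tdT* mice 2.66 ± 0.83 and 2.94 ± 0.88. *Pdgfrb* thus led in all 8 *Acta2-tdT* mice and *Pdgfra* in all 8 *Pdgfra-tdT* mice. The lines differed by -5.77 with saline and by -4.91 with bleomycin (exact two-sided permutation test, p = 0.0286 for each, the smallest that 4 against 4 mice allow, and 0.0381 adjusted over 4 comparisons). Cells of *Pdgfra-tdT* mice were sorted by a label under the *Pdgfra* promoter, so this difference is not independent of the sort. About 34 to 57 fragments stood behind *Pdgfra* in *Acta2-tdT* saline and 2 to 25 behind *Pdgfrb* in *Pdgfra-tdT* bleomycin mice.

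Between saline and bleomycin, the ratio in *Acta2-tdT* mice shifted towards *Pdgfra* by 1.14, with no overlap of the groups (-3.41 to -2.48 against -2.47 to -1.66; exact permutation p = 0.0286, adjusted 0.0381). The shift was 1.26 with scaled FPKM and 1.40 with 0.01 FPKM added (exact permutation p = 0.0286 each), but 0.042 with 1 FPKM added (exact permutation p = 0.8). In *Pdgfra-tdT* mice the shift was 0.28 (exact permutation p = 0.6), and it was -0.18 with 1 FPKM added and -0.11 without saline replicate 3.

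**Figure D2:**
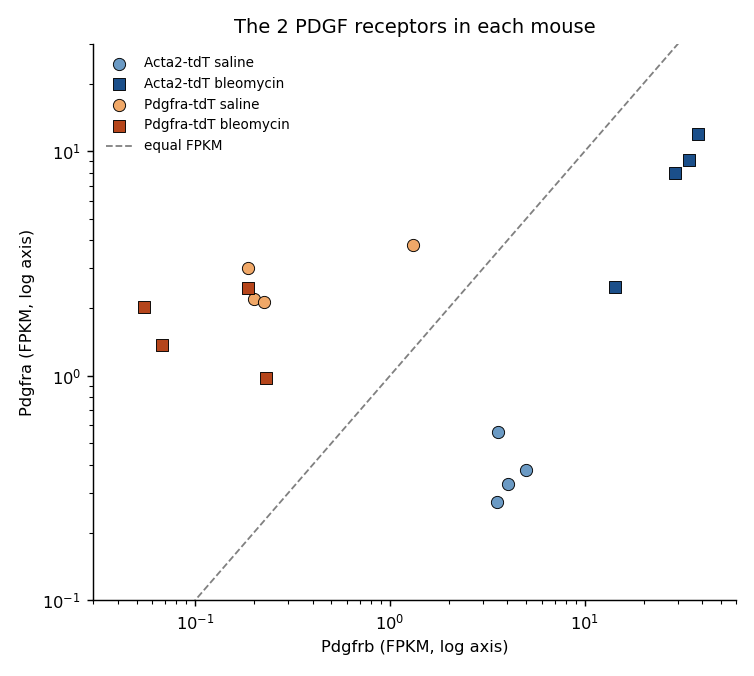
Each point is 1 mouse, with *Pdgfrb* on the horizontal and *Pdgfra* on the vertical axis, both in FPKM on log axes, and the dashed line marks equal FPKM. All 8 *Acta2-tdT* mice lie below the line and all 8 *Pdgfra-tdT* mice above it.

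Within *Acta2-tdT*, the mice given bleomycin had more of both receptors as deposited. This comparison and those between the lines share groups of mice and are not independent. *Pdgfra* rose by 2.53 ± 0.38 (limma, adjusted p = 0.000118) and *Pdgfrb* by 2.49 ± 0.37 (limma, adjusted p = 0.00011) on the log2(FPKM + 1) scale. In the same comparison 70.4% of 12523 genes were called higher and the median change of all tested genes was 1.76, which scaling brought to -0.01. After scaling *Pdgfra* kept a rise of 0.49 ± 0.17 (limma, adjusted p = 0.0317), although its groups overlapped, at 0.373, 0.797, 0.347 and 0.323 scaled FPKM with saline and 0.535 to 1.33 with bleomycin. That call was lost when any of 6 of the 8 mice was left out (*Acta2-tdT* saline replicate 1, 3 or 4, or bleomycin replicate 5, 7 or 8), with adjusted p from 0.066 to 0.0807. Scaled *Pdgfrb* was 4.61 ± 0.43 (SD) with saline and 4.00 ± 0.68 with bleomycin, a difference of -0.17 with a 95% interval of -0.60 to 0.25 (limma, adjusted p = 0.453).

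Within *Pdgfra-tdT*, *Pdgfra* was the only member that reached the minimum for a test. It changed by -0.50 ± 0.33 as deposited (limma, adjusted p = 0.791) and did not pass. As scaled FPKM it was 5.24, 3.78, 3.25 and 3.08 with saline and 0.864, 1.30, 2.38 and 1.71 with bleomycin. These groups did not overlap (exact permutation p = 0.0286), as was so for 2.32% of 7275 genes (2.58% as deposited), but the difference of -0.93 ± 0.46 did not pass in the fit over all genes (limma, adjusted p = 0.746). Of 7275 genes, 0.124% passed as deposited and 0.151% scaled. The other 5 members were given the exact test alone in this comparison, and the smallest of their p-values was 0.0857 (*Pdgfb*, scaled, exact permutation test).

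Genes next to *Pdgfra* were also read out, since Cre was driven in *Pdgfra-tdT* mice by the promoter of this gene. The neighbours named here were chosen after their values were seen. *Olfr1401-ps1*, a pseudogene upstream at chr5:75141348-75141558, was 16.3 to 24.5 FPKM in *Pdgfra-tdT* saline and 5.76 to 20.3 FPKM in *Pdgfra-tdT* bleomycin mice, against 0 to 4.50 and 0 to 2.23 FPKM in the *Acta2-tdT* groups. *Gm2040*, a pseudogene farther upstream, was at 0 in all 8 *Acta2-tdT* mice and reached 4.91 FPKM in *Pdgfra-tdT* saline mice. Whether any fragments counted for *Pdgfra* came from the transgene was not tested. *Gm42802*, an antisense gene within *Pdgfra*, was 0 to 3.99 FPKM, and these libraries do not separate it from *Pdgfra* by strand.

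Among the ligands, *Pdgfa* (ENSMUSG00000025856, chr5:138976014-138997370), which encodes the A chain, had the highest level in *Acta2-tdT* mice. It was 1.74, 2.79, 0.979 and 4.25 FPKM in *Acta2-tdT* saline mice and 73.3, 27.6, 56.4 and 60.6 FPKM in *Acta2-tdT* bleomycin mice. All 4 bleomycin mice lay above all saline mice on both scales, and the scaled values went from 2.39, 3.95, 1.03 and 3.62 to 11.7, 5.92, 6.65 and 6.76. *Pdgfa* rose by 4.02 ± 0.43 as deposited (limma, adjusted p = 2e-05) and by 1.26 ± 0.33 scaled (limma, adjusted p = 0.00857), and the ratio of the group means was 22.3 and 2.83.

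In the *Pdgfra-tdT* line *Pdgfa* was 0.164, 0.320, 1.12 and 0.342 FPKM with saline and 6.83, 0.859, 0.779 and 0.217 FPKM with bleomycin. The highest mouse of each group was one of the pair that was high in endothelial genes. Between the lines *Pdgfa* was higher in *Acta2-tdT* by 4.47 ± 0.69 as deposited (limma, adjusted p = 0.000262) and by 2.08 ± 0.39 scaled with bleomycin (limma, adjusted p = 0.00459). With saline the difference of 1.16 ± 0.34 did not pass (limma, adjusted p = 0.154), and without *Pdgfra-tdT* saline replicate 3 it was 1.34 and passed (limma, adjusted p = 0.0241). Scaled, the saline difference was 1.19 ± 0.32 (limma, adjusted p = 0.0922), and it passed without that mouse (1.30, limma, adjusted p = 0.0182) or without *Acta2-tdT* saline replicate 3 (1.46, limma, adjusted p = 0.0439).

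*Pdgfc* (ENSMUSG00000028019, chr3:81036416-81214040), whose product needs a protease to release its active domain, was above 1 FPKM in a single group. It was 0.152, 0.199, 0.283 and 0.116 FPKM in saline- and 3.32, 7.03, 6.37 and 6.98 FPKM in bleomycin-treated *Acta2-tdT* mice. In *Pdgfra-tdT* mice it was 0.0755, 0.0776, 0.0529 and 0.114 FPKM with saline and 0.0529, 0.0455, 0.270 and 0 FPKM with bleomycin. The bleomycin-treated *Acta2-tdT* mice lay above all others on both scales. *Pdgfc* was higher in them than in *Acta2-tdT* saline mice by 2.50 ± 0.25 as deposited (limma, adjusted p = 1.7e-05) and 0.61 ± 0.15 scaled (limma, adjusted p = 0.00639), with ratios of the group means of 31.6 and 4.03. The saline values below these ratios stood on about 8 to 19 fragments. They lay under the background median of 0.323 to 0.332 FPKM of that group, so the ratios have a denominator at background. Against *Pdgfra-tdT* bleomycin mice the differences were 2.63 ± 0.31 (limma, adjusted p = 7.6e-05) and 0.77 ± 0.17 (limma, adjusted p = 0.00861), with *Pdgfc* below 1 FPKM in all of the latter.

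*Pdgfb* (ENSMUSG00000000489, chr15:79995900-80014808), which encodes the B chain, varied widely within the *Pdgfra-tdT* groups. In *Acta2-tdT* mice it was 0.189, 0.153, 0.179 and 0.277 FPKM with saline and 1.78, 1.08, 1.57 and 1.51 FPKM with bleomycin. In *Pdgfra-tdT* mice it was 0.0583, 0.0644, 0.937 and 0.0490 FPKM with saline and 12.8, 0.757, 0.708 and 0.0994 FPKM with bleomycin. The highest value in each *Pdgfra-tdT* group belonged to a mouse of the endothelial pair, and the lowest to mice with *Pecam1* below 1 FPKM. The summed FPKM of 7 endothelial markers was 373 in the saline and 992 in the bleomycin mouse of that pair, against 6.87 to 13.2 in saline- and 24.3 to 28.6 in bleomycin-treated *Acta2-tdT* mice. In the other *Pdgfra-tdT* mice this sum was 4.12 to 10.3 with saline. With bleomycin it was 108, 32.2 and 4.18 in replicates 6, 7 and 8, so the endothelial signal was not confined to the pair. The 6 platelet and megakaryocyte markers summed to 9.15 to 55.2 FPKM with saline and 112 to 350 FPKM with bleomycin in *Acta2-tdT* mice, and to 2.16 to 4.53 and 2.05 to 24.7 FPKM in *Pdgfra-tdT* mice, and *Gp9* was at 0 in 2 of 4 mice of every group. *Pf4* made up nearly all of this sum in *Acta2-tdT* mice, at 7.94 to 53.3 and 109 to 340 FPKM. The part of these cells in *Pdgfb* was not tested.

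*Pdgfb* rose with bleomycin in *Acta2-tdT* mice by 1.04 ± 0.15 as deposited (limma, adjusted p = 8.2e-05), and scaled it differed by -0.01 with a 95% interval of -0.14 to 0.12 (limma, adjusted p = 0.896). Between the bleomycin lines it differed by -0.07 as deposited, with an interval of -1.45 to 1.30 (limma, adjusted p = 0.919). Without *Pdgfra-tdT* bleomycin replicate 5 that difference was 0.73 and passed (limma, adjusted p = 0.0198). Scaled, with all 8 mice, it was -0.80 (limma, adjusted p = 0.129). *Pdgfra*, *Pdgfb* and *Pdgfc* passed the minimum of 1 FPKM in the *Acta2-tdT* comparison through the bleomycin mice alone. Of the 5 members tested there, 5 were higher as deposited and 3 scaled, where 70.4% and 24.5% of 12523 genes were. The groups did not overlap for 5 as deposited and 2 scaled, as for 80.3% and 51.5% of genes.

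**Figure D3:**
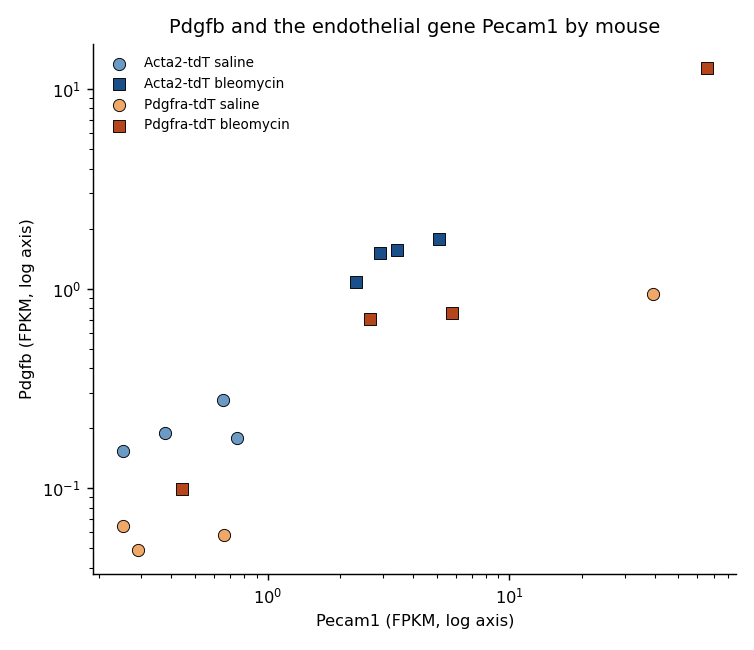
Each point is 1 mouse, with *Pecam1*, an endothelial adhesion gene, on the horizontal and *Pdgfb* on the vertical axis, both in FPKM on log axes. The mice with the highest *Pecam1*, at 39.1 and 65.9 FPKM, had the highest *Pdgfb* of their *Pdgfra-tdT* group, at 0.937 and 12.8 FPKM.

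*Pdgfd* (ENSMUSG00000032006, chr9:6168584-6378850), whose product acts mainly through PDGFRβ, had the smallest spread between groups as deposited. In *Acta2-tdT* mice it was 0.664, 1.09, 0.716 and 0.895 FPKM with saline and 0.819, 1.06, 0.245 and 0.794 FPKM with bleomycin. In *Pdgfra-tdT* mice it was 0.714, 0.604, 2.05 and 0.455 FPKM with saline and 1.70, 0.963, 0.920 and 0.506 FPKM with bleomycin. The 4 groups overlapped, and in each comparison of 2 groups too few mice reached 1 FPKM for the fit. Scaled, *Acta2-tdT* bleomycin mice had 0.131, 0.227, 0.0289 and 0.0885, below every mouse of the other groups. The difference was -0.82 on the log2(scaled FPKM + 1) scale against *Acta2-tdT* saline and -0.74 against *Pdgfra-tdT* bleomycin mice (exact permutation p = 0.0286 each). *Pdgfd* was below the minimum for the fit, and among the genes that passed it such a lack of overlap was seen for 51.5% and 34.4%.

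**Figure D4:**
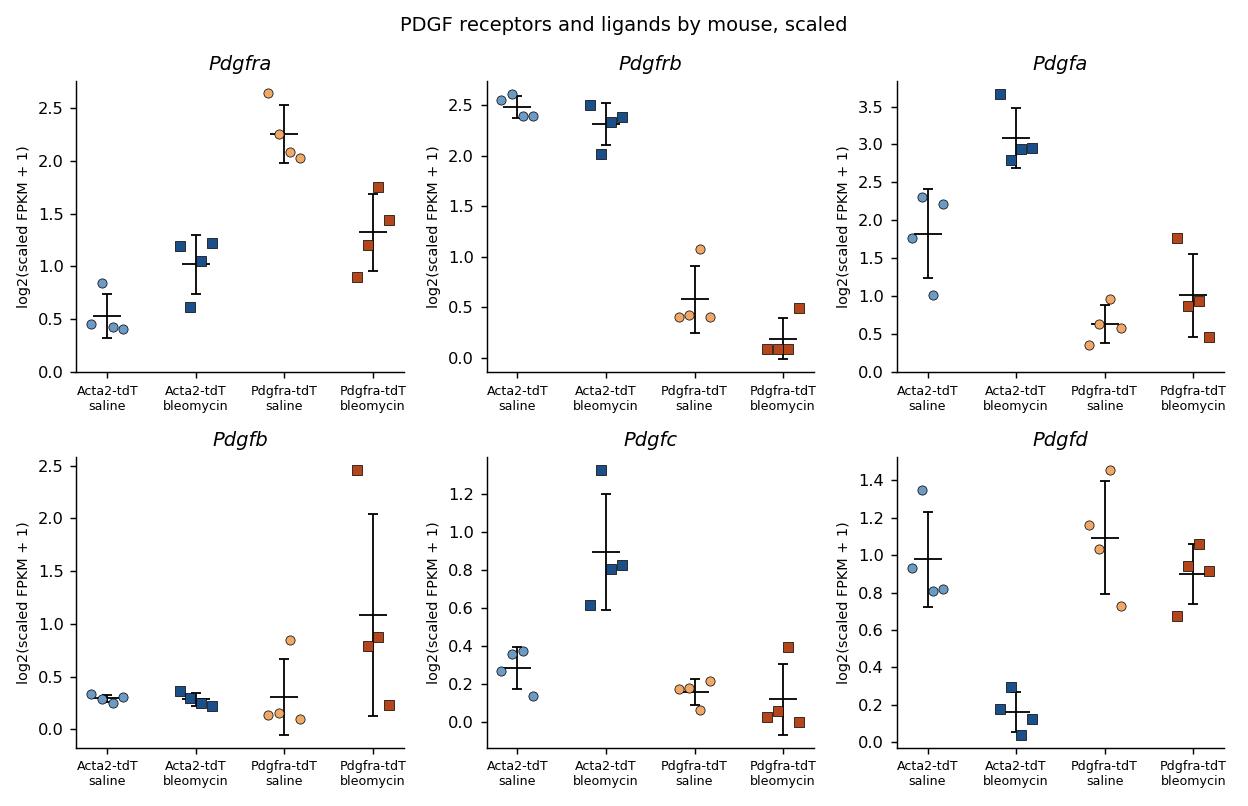
Each panel plots 1 gene as log2(scaled FPKM + 1) on the vertical axis for the 4 mice of each group (points), with the mean and SD of the group (bars). *Pdgfrb* separated the lines, *Pdgfa* and *Pdgfc* were highest in *Acta2-tdT* bleomycin mice, and *Pdgfd* was lowest in them.

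The ligand mix was also described within each mouse, which does not depend on scaling. Over the 4 ligands, *Pdgfa* made up a median of 64.7% (45.4% to 76.7%) of the summed ligand FPKM in *Acta2-tdT* saline mice and 87.0% (75.0% to 92.5%) in *Acta2-tdT* bleomycin mice. *Pdgfd* went from 25.0% (16.2% to 33.2%) to 1.08% (0.379% to 2.88%), and its groups did not overlap. The background median also differed between these groups, at 0.323 to 0.332 FPKM with saline and 0.0134 to 0.122 FPKM with bleomycin. Its part in these shares was not tested. In *Pdgfra-tdT* mice *Pdgfd* was the largest part with saline, at a median of 53.0% (47.4% to 70.6%), and was 35.5% (7.97% to 61.5%) with bleomycin. With saline these shares split low values. *Pdgfa*, *Pdgfb* and *Pdgfc* had medians of 0.331, 0.0614 and 0.0766 FPKM there, against a background median of 0.175 to 0.336 FPKM. About 3 to 24, 3 to 46 and 2 to 6 fragments stood behind them, and 21 to 74 behind *Pdgfd*.

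*Pdgfb* made up 5.10% to 22.5% of the ligands in *Pdgfra-tdT* saline and 12.1% to 59.8% in *Pdgfra-tdT* bleomycin mice, with the highest share in each group in a mouse of the endothelial pair. The summed ligand level was highest in *Acta2-tdT* bleomycin mice on both scales, at 36.7 to 79.2 FPKM and 7.62 to 12.7 scaled FPKM. It was 2.16 to 5.54 FPKM in *Acta2-tdT* saline mice and 2.26 to 5.99 scaled. In *Pdgfra-tdT* mice it was 0.960 to 4.16 FPKM (1.38 to 3.53 scaled) with saline and 0.822 to 21.3 FPKM (1.44 to 7.52 scaled) with bleomycin, so the highest scaled value there was nearly level with the lowest in *Acta2-tdT* bleomycin mice. No test was run on the shares.

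**Figure D5:**
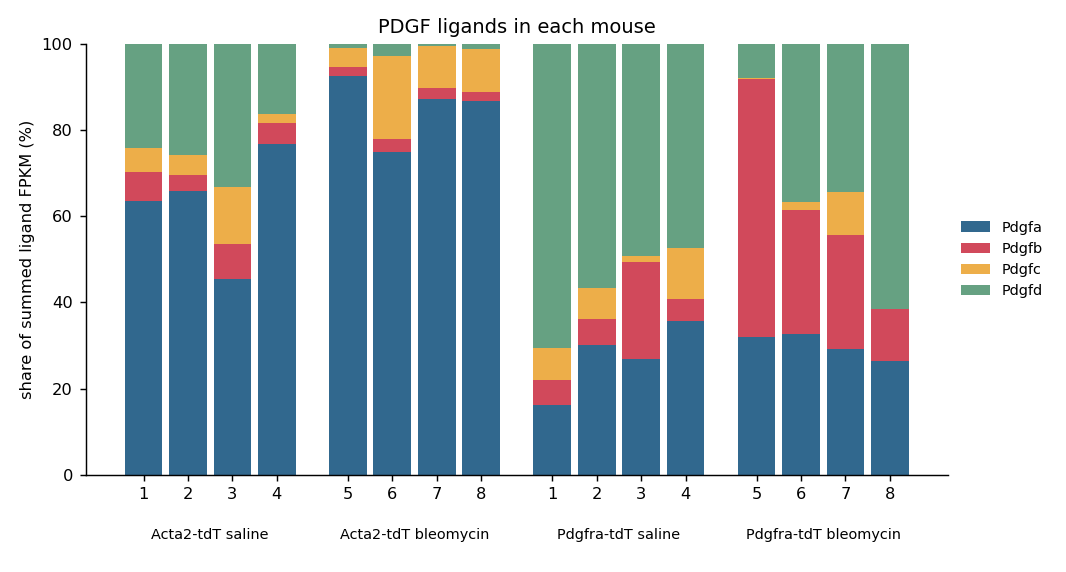
Each bar is 1 mouse, numbered by replicate, and shows the share of the summed FPKM of the 4 ligands taken by each ligand in percent. *Pdgfa* took 75.0% to 92.5% in *Acta2-tdT* bleomycin mice, and *Pdgfd* took 47.4% to 70.6% in *Pdgfra-tdT* saline mice. The 4 ligands summed to only 0.960 to 4.16 FPKM in the latter.

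Whether bleomycin acted differently on the members in the 2 lines was tested as the interaction of line and treatment over all 16 mice. As deposited, 4 of 6 members were called, all with the larger change in *Acta2-tdT*, where 36.6% of 16605 genes were called in that direction. The differences of the log2 changes were 3.03 ± 0.51 for *Pdgfra*, 2.81 ± 0.46 for *Pdgfrb*, 3.31 ± 0.75 for *Pdgfa* and 2.49 ± 0.28 for *Pdgfc* (limma, adjusted p from 3.2e-05 to 0.00372). *Pdgfc* reached 1 FPKM in *Acta2-tdT* bleomycin mice alone and so entered this fit through the group where it was high. *Pdgfb* differed by -0.03 (limma, adjusted p = 0.977) and *Pdgfd* by -0.19 (limma, adjusted p = 0.681).

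After scaling, 0 of 6 members were called by limma, where 2.08% of genes were called in either direction. At an unadjusted p under 0.05, which 18.4% of all genes met, 3 members passed: *Pdgfra* at 1.41 ± 0.35 (limma, adjusted p = 0.0521), *Pdgfc* at 0.65 ± 0.19 (limma, adjusted p = 0.0905) and *Pdgfd* at -0.62 ± 0.26 (limma, adjusted p = 0.222). Without the 2 mice high in endothelial genes, *Pdgfra* at 1.33 (limma, adjusted p = 0.0155) and *Pdgfd* at -0.82 (limma, adjusted p = 0.0269) were called, as were 2318 of all 16605 genes, against 345 with all mice. That fit kept *Pdgfra-tdT* bleomycin replicates 6 and 7, whose endothelial markers summed to 108 and 32.2 FPKM. *Pdgfra* was also called, at 1.27 to 1.56, when any of 4 single mice was left out: *Acta2-tdT* bleomycin replicate 6, *Pdgfra-tdT* saline replicate 3, or *Pdgfra-tdT* bleomycin replicate 5 or 7.

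The pathway around the members was followed in 71 genes of 7 lists. Between the saline lines 14 were tested and 2 were higher in *Acta2-tdT* on both scales, which were *Fos*, an immediate-early transcription factor, and *Pgf*, a ligand of the related VEGF family. As deposited, *Fos* differed by 3.62 ± 0.47 (limma, adjusted p = 0.00749) and *Pgf* by 2.09 ± 0.39 (limma, adjusted p = 0.03). *Pgf* reached 1 FPKM in *Acta2-tdT* mice alone. With bleomycin in *Acta2-tdT*, 51 of 52 tested genes were higher as deposited, where 70.4% of all genes were, and scaled 20 were higher and 4 lower. Between the bleomycin lines 50 of 53 tested genes were higher in *Acta2-tdT* as deposited, where 71% of all genes were, and scaled 20 were higher and 2 lower. In *Pdgfra-tdT* mice 14 genes were tested and 0 passed limma on either scale, with 1 as deposited and 1 scaled at an unadjusted p under 0.05. As shares, 38.5% of the tested pathway genes were higher with bleomycin in *Acta2-tdT* after scaling, against 24.5% of all genes, and 37.7% between the bleomycin lines, against 17.2%. The shares called lower were 7.69% against 32.5% of all genes and 3.77% against 17.5%. In *Acta2-tdT*, 17 of the 52 tested genes reached 1 FPKM in the bleomycin mice alone, and between the bleomycin lines 11 of 53 did so in *Acta2-tdT* mice alone, so their test rests on the group where they were high as deposited. Among the genes named next these are *Furin*, *Cspg4*, *Pik3r2*, *Cbl* and *Myc* in the former and *Pdgfrl* in the latter comparison, and *Pik3r2* in the interaction.

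Ahead of the receptors stand the proteases that release active PDGF-C and PDGF-D. *Plat*, tissue plasminogen activator, which can release PDGF-C, was 0.956 to 1.25 scaled FPKM in saline- and 4.30 to 8.54 in bleomycin-treated *Acta2-tdT* mice. It rose by 1.86 ± 0.21 scaled (limma, adjusted p = 6.6e-05). *Furin*, a proprotein convertase that cuts the PDGF-A precursor, rose by 1.44 ± 0.23 scaled (limma, adjusted p = 0.000488). In all, 3 of the 4 tested proteases of 6 listed were called higher, where 24.5% of all genes were. Among these 3, *Furin* and *Plau* reached 1 FPKM in the bleomycin mice alone. Of 54 pathway genes tested in the scaled interaction 2 were called (3.7%, against 2.08% of all genes), *Plat* at 1.75 ± 0.37 (limma, adjusted p = 0.0224) and *Pik3r2* at 1.07 ± 0.26 (limma, adjusted p = 0.0451). With bleomycin in *Acta2-tdT* the protease list had a median scaled change of 1.01, against -0.01 over all genes tested.

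Among co-receptors and PDGF-binding proteins, 3 of 6 were higher with bleomycin in *Acta2-tdT* after scaling, where 24.5% of all genes were, and 3 of 6 were higher in *Acta2-tdT* between the bleomycin lines, where 17.2% were. *Sparc*, a matrix protein that binds PDGF-B, was 96.3 to 120 scaled FPKM in saline- and 654 to 958 in bleomycin-treated *Acta2-tdT* mice, and rose by 2.82 ± 0.27 scaled (limma, adjusted p = 2.7e-05). *Cspg4*, the NG2 proteoglycan of pericytes, rose by 0.68 ± 0.17 scaled (limma, adjusted p = 0.00819). Between the bleomycin lines *Pdgfrl*, a receptor-like protein, was higher in *Acta2-tdT* than in *Pdgfra-tdT* bleomycin mice by 1.15 ± 0.27 scaled (limma, adjusted p = 0.00981).

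Downstream, the 19 receptor adaptors and enzymes gave 15 tested genes, of which 14 were higher with bleomycin in *Acta2-tdT* as deposited, where 70.4% of all genes were. Scaled, 3 were higher and 1 was lower, where 24.5% of all genes were higher and 32.5% lower. *Pik3r2*, a regulatory subunit of PI3 kinase, was higher by 0.97 ± 0.19 scaled (limma, adjusted p = 0.00209), whereas *Pik3ca*, a catalytic subunit, was lower at -0.83 ± 0.13 (limma, adjusted p = 0.000372). As deposited, *Pik3ca* changed by 0.37 and did not pass (limma, adjusted p = 0.11). In the Ras-MAPK and AKT relay, 5 of 10 tested genes were higher and 1 lower scaled, with *Map2k2*, the kinase MEK2, at 1.71 ± 0.28 (limma, adjusted p = 0.000626).

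The negative regulators included *Dusp6*, a phosphatase of ERK, which was 0.353 to 1.12 scaled FPKM in saline- and 4.41 to 6.89 in bleomycin-treated *Acta2-tdT* mice and rose by 2.11 ± 0.21 scaled (limma, adjusted p = 2.9e-05). *Cbl*, a ubiquitin ligase of the receptors, was lower by 0.53 ± 0.13 scaled (a difference of -0.53, limma, adjusted p = 0.00564) and higher by 0.75 as deposited (limma, adjusted p = 0.0055). Among the 5 tested immediate-early targets scaled, 1 was higher, where 24.5% of all genes were, *Myc* at 0.97 ± 0.15 (limma, adjusted p = 0.00034), and 1 was lower, *Fos* at -0.98 ± 0.37 with overlapping groups (limma, adjusted p = 0.0461), which was higher as deposited. This value of *Fos* lies outside the rule for named genes and was chosen after its value was seen. *Egr1* differed between the bleomycin lines by 2.65 ± 0.55 scaled (limma, adjusted p = 0.0064), with 13.4 to 18.5 scaled FPKM in *Acta2-tdT* and 0.260 to 5.63 in *Pdgfra-tdT* mice. In the related receptor and VEGF family list, *Flt1*, a VEGF receptor of endothelium, was lower in *Acta2-tdT* than in *Pdgfra-tdT* bleomycin mice at -1.53 ± 0.31 scaled (limma, adjusted p = 0.00562), and *Csf1r*, the macrophage receptor, was higher by 1.77 ± 0.46 (limma, adjusted p = 0.0152).

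Markers of other cells were read in the same comparisons. In *Acta2-tdT* mice the summed scaled FPKM of 7 macrophage markers was 62.1 to 183 after saline and 215 to 681 after bleomycin, and 3 of 6 tested were higher. In *Acta2-tdT* bleomycin mice 6 of 6 tested fibroblast markers were higher than with saline after scaling, and their sum was 26.4 to 34.2 scaled FPKM with saline and 225 to 353 with bleomycin. The 6 pericyte markers summed to 19.4 to 29.6 scaled FPKM with saline and 3.87 to 7.51 with bleomycin, with 3 of 5 tested lower and 1 higher, whereas as deposited 3 were higher and 0 lower. The 4 neutrophil markers summed to 1015 to 1541 scaled FPKM after saline and 134 to 909 after bleomycin in *Acta2-tdT* mice, with 4 of 4 tested lower, whereas as deposited 4 of 4 were higher. Beside these counts in *Acta2-tdT* mice, 24.5% of all 12523 genes were higher and 32.5% lower scaled. As deposited, 70.4% were higher and 16.3% lower. Between the saline lines 3 of 4 neutrophil markers were higher in *Acta2-tdT* on both scales, with *S100a8* at 460 to 892 against 10.9 to 27.2 FPKM. Of all genes, 2.72% were higher there as deposited and 3.02% scaled. The macrophage sum in *Pdgfra-tdT* mice was 25.3 to 135 scaled FPKM after saline and 645 to 1712 after bleomycin, of which *Lyz2* made up 599 to 1454 in the latter. Of 3 tested macrophage markers there, 0 passed limma on either scale and 3 had an unadjusted p under 0.05. Of all 7275 genes, 312 had such a p as deposited and 331 scaled. *Ptprc*, which marks leukocytes, had a median of 1.42 and 1.35 scaled FPKM. The part of these cells in the levels of the members was not tested.

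Genes with a pattern like that of a member were listed from log2(scaled FPKM + 1) over the 16 mice, as a description. Since the mice come from 4 groups, these coefficients reflect the group pattern. *Pdgfrb* was most like *Tbx2* (Pearson r = 0.98), *Tagln* (0.97) and *Tpm2* (0.96), the last 2 being genes of the contractile apparatus. *Pdgfa* was most like *Galk1* (0.95), *Pdgfc* like *Fndc1* (0.94), *Pdgfb* like *Gpr146* (0.94) and *Pdgfd* like *Sh3gl2* (0.96). *Pdgfra* had the lowest top value, 0.82 with *Mcm10*, and its own coefficient with *Pdgfrb* was -0.67.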

How the data were processed

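RNA from sorted tdTomato-positive lung cells of 16 mice was sequenced. Per the submitters' notes and methods, TopHat2 2.1.1 with Bowtie2 mapped the fragments to mm10 (GRCm38), and the authors deposited FPKM per gene and mouse from Cufflinks 2.1.1. How values were normalized between mice is not given in the sources used here. Rows of 1 gene were summed. Scaled FPKM divide by the nuclear protein-coding sum of the mouse. Genes that reached 1 FPKM in 4 or more mice of a comparison were fitted with limma 3.58.1 (R 4.3.3; lmFit, eBayes with trend) on log2(FPKM + 1), or on log2(scaled FPKM + 1), with Benjamini-Hochberg adjustment over all genes and a threshold of 0.05; folds on this scale understate the change of low genes. Single values were tested with exact two-sided permutation tests over 70 labellings (SciPy 1.17.1). The limma steps were tested on simulated data. Depth is unknown, and nothing says whether the 4 mice of a group shared a litter or batch, so p-values measure the spread between these mice.

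The members and lists were chosen with earlier results of these data known. Pathway genes were named by size of change, at most 4 per list and comparison, among those that passed without overlap of the groups, and like genes as the 3 with the highest Pearson r among 10375 genes. The lists are proteases that process ligands, co-receptors and binding proteins, adaptors and enzymes, the Ras-MAPK and AKT relay, negative regulators, immediate-early targets, and related class III receptors and the VEGF family. Marker lists for 8 cell types were read beside them. Saline and bleomycin mice carry different numbers, and equal numbers in the 2 lines were not found to pair the mice. Alternatives were the scaling, pseudocount and filter, sample weights, all mice in 1 fit, a replicate block and leaving out each mouse. The result of 1 listed gene is not reported here.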

Additional observations from a re-analysis of the deposited data

Results flagged for a closer look

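In 5 of 24 groups of 4 mice, the highest mouse lay apart from the other 3 by more than the critical share of the range of the group (Dixon). Normal values give such a gap in about 1 group in 20. Over all genes tested in the interaction, 21.9% of 64729 such groups had a highest or lowest mouse that far apart. These were 3 of 6 genes in *Pdgfra-tdT* saline and 2 of 6 in *Pdgfra-tdT* bleomycin mice, where 35.7% and 28.7% of the genes tested in the interaction had such a mouse. In *Pdgfra-tdT* saline replicate 3 these were *Pdgfrb* at 1.30 FPKM, *Pdgfb* at 0.937 FPKM and *Pdgfd* at 2.05 FPKM. In *Pdgfra-tdT* bleomycin replicate 5 they were *Pdgfa* at 6.83 FPKM and *Pdgfb* at 12.8 FPKM. Both mice also had the highest *Pecam1* of their group, at 39.1 and 65.9 FPKM, and the part of endothelial RNA in these values was not tested.

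The log2 change with bleomycin differed between the lines in the interaction fit as deposited for *Pdgfra* by 3.03, *Pdgfrb* by 2.81, *Pdgfa* by 3.31 and *Pdgfc* by 2.49, and after scaling for none of the 4 (limma, adjusted p from 0.0521 to 0.757).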

How the results depend on the processing

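Between the saline lines 2 members were called, and 0 were without the low-value filter, 1 with all 16 mice in 1 fit and 1 to 3 with a mouse left out; the call of *Pdgfrb* was lost without *Pdgfra-tdT* saline replicate 1, 2 or 4 (limma, adjusted p from 0.0612 to 0.0629), and with all 16 mice that of *Pdgfra* was (limma, adjusted p = 0.12). With the replicate number as a block 0 were called, and 2 scaled. Mice of equal number correlated at -0.311 to 0.156 in their deviations, 2 of 4 saline and 0 of 4 bleomycin pairs being best with their own number, so the numbers were not taken to pair the mice; the block changed no other count of members. Of all genes, 237 were called between the saline lines, against 2715 with quality weights, 59 without the filter, 114 with all 16 mice, 36 with the block and 88 to 2397 with a mouse left out, the last without *Pdgfra-tdT* saline replicate 3. With bleomycin in *Pdgfra-tdT* the 9 genes called became 548 with quality weights, 2 without the filter, 5 with all 16 mice, 19 without the 2 mice high in endothelial genes and 73 without bleomycin replicate 8.

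Of the 5 members called with bleomycin in *Acta2-tdT*, scaling left 3, also with a pseudocount of 0.1. Of the 4 called in the interaction, scaling left 0, or 2 with a pseudocount of 0.1, and the 0 called scaled became 2 without the 2 mice high in endothelial genes and 0 to 1 with a mouse left out. Scaling moved the genes called from 9553 to 4165 between the bleomycin lines, from 10848 to 7128 with bleomycin in *Acta2-tdT* and from 6605 to 345 in the interaction, where a pseudocount of 0.1 gave 3463 and quality weights 10668. Signs turned for *Pdgfra* between the bleomycin lines (-0.30 scaled, -0.51 with a pseudocount of 0.1), for *Pdgfrb* (-0.17, -0.21) and *Pdgfb* (-0.0093, -0.0425; with a mouse left out, scaled, -0.0356 to 0.0104) in *Acta2-tdT*, for *Pdgfb* between the bleomycin lines (0.44 with a pseudocount of 0.1, 0.57 with quality weights, -0.48 to 0.73 with a mouse left out) and for *Pdgfb* in the interaction (0.20, 0.40, 0.55 without the 2 mice, -0.45 to 0.77 with a mouse left out). The causes were not tested.

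With a mouse left out the receptor ratio differed by -6.16 to -5.51 between the saline lines, -5.32 to -4.63 between the bleomycin lines, 1.04 to 1.35 in *Acta2-tdT* and -0.11 to 0.69 in *Pdgfra-tdT* mice, where the exact test cannot go below 0.0571. With 1 FPKM added it was 0.0418 in *Acta2-tdT* and -0.175 in *Pdgfra-tdT* mice, and -0.182 in the latter without the 2 mice high in endothelial genes. These 2 mice were chosen after seeing the data, as were the scaled repeats of the block and of leaving out a mouse. Low levels limit *Pdgfc* and *Pdgfb* outside *Acta2-tdT* bleomycin mice, at under 1 FPKM in most mice.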
